A study of Mus musculus with 2 samples.

Results

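Messenger RNA levels of 52 genes that build ribosomes in the nucleolus or form the RNA exosome were compared on 2 Affymetrix mouse arrays of erythroid progenitors without the erythropoietin receptor. The 52 were chosen by name, with earlier results of these data known, among 17874 genes with a probe set annotated to them alone. Of 33 listed symbols 31 were measured (Npm3 and Mrto4 were not analysed here), and 10 genes with Exosc symbols and 11 with Utp symbols completed the set. Each of the 52 was read by 1 probe set, so the averaging per symbol had no effect on them.

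The arrays hold cells selected as colony-forming unit erythroid (CFU-E) progenitors from fetal livers of EpoR-/- BALB/c embryos at gestational day 13.5, each preparation pooling 40 to 50 livers. Both samples went through 1 h without growth factors. The 0 h sample (1 array) was then lysed, and the 3 h sample (1 array) was kept in Panserin 601 without added growth factors, per the protocol. The treatment tag of the 3 h sample reads "supplemental growth factors" and that of the 0 h sample "control", the genotype tag of both reads "Epo KO" in place of the receptor, and the strain tag is present for 0 h alone. The samples are therefore called by their time. No wild-type or erythropoietin-treated cells were analysed here, so the comparison is that of 3 h with 0 h inside 1 genotype. With 1 array per time no difference has a replicate, a test or an error, so precision is limited by the number of arrays. In bulk RNA, fewer cells of a type and less RNA per cell cannot be told apart.

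Of 13 measured erythroid markers 11 reached the floor of 5.70 used below at 0 h and 12 at 3 h. The gene of the erythroid haem synthesis enzyme Alas2 stayed under it throughout (4.49 and 4.72), as did the band 3 gene Slc4a1 at 0 h (5.47). Among these 12 genes 11 had the higher value at 3 h and 7 passed 1.5-fold, and the median difference of the 12 was 0.65. Slc4a1 (8.30 at 3 h) is among the 7. It reached the floor at 3 h alone, so its direction too was set by the floor. For comparison, 6.94% of the 9284 genes with a value of 5.70 or more rose by this size, and 48.5% fell. The summed linear signal of all 13 erythroid markers went from 11697 to 16319. Markers of other cells differed as well. Among 13 granulocyte markers 6 reached the floor at 0 h and 9 at 3 h. Camp, Lcn2 and Ngp reached it at 3 h alone, so their direction was set by the floor. All 9 were higher at 3 h, and the summed linear signal over all 13 went from 6515 to 12530. For 14 macrophage markers, of which 5 reached the floor and 4 were higher, it went from 1737 to 2649. For 16 hepatocyte markers, all at or above the floor and 14 lower, it went from 104520 to 98854. Very high signals such as Afp (14.60 at 0 h) and Alb (14.15) weigh most in this sum, and saturation may hide a difference there. The median difference of the 16 was -0.19. Of them 3 were at least 1.5-fold lower and 2, Krt8 and Krt18, at least 1.5-fold higher. The part of these cell types in the differences given here was not tested.

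Ribosome production starts with transcription of the long ribosomal RNA precursor by RNA polymerase I. Small nucleolar ribonucleoproteins (snoRNPs) then modify the precursor, the small subunit processome and separate large subunit factors fold and cut it, and the exosome, a ring of subunits with 3′ to 5′ exonucleases attached, trims and degrades RNA. Many of these genes are known targets of the growth regulator MYC, and erythroid progenitors make ribosomes at a high rate before they fill with haemoglobin.

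Most of these genes were lower at 3 h, by small amounts. Levels are log2 values as deposited, and differences are the log2 value at 3 h minus that at 0 h. The floor was the median of all gene values, 5.70, and had to be reached by a gene on at least 1 array. It was passed by 47 of 52 members (90.4%) and by 9284 of all genes (51.9%). Of the 47, 39 were lower and 8 higher (83.0% lower, against 48.5% of the 9284). The median difference was -0.27, against 0.01 over all genes. At least 1.5-fold lower were 5 members, which is 10.6% against 4.8% of all genes, and none was 1.5-fold higher, against 6.94%. No member was 2-fold lower, a size that 0.872% of all genes reached. Of the 47, 26 lay among the lowest 25% of all differences. The spread of all differences had a robust SD of 0.31, so the difference of most single members was no larger than that of many other genes on these arrays. Most members shared a direction, which a single pair of arrays cannot test. The members were also chosen with earlier results of these data known, so these shares are a description and not independent support.

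**Figure D1:**
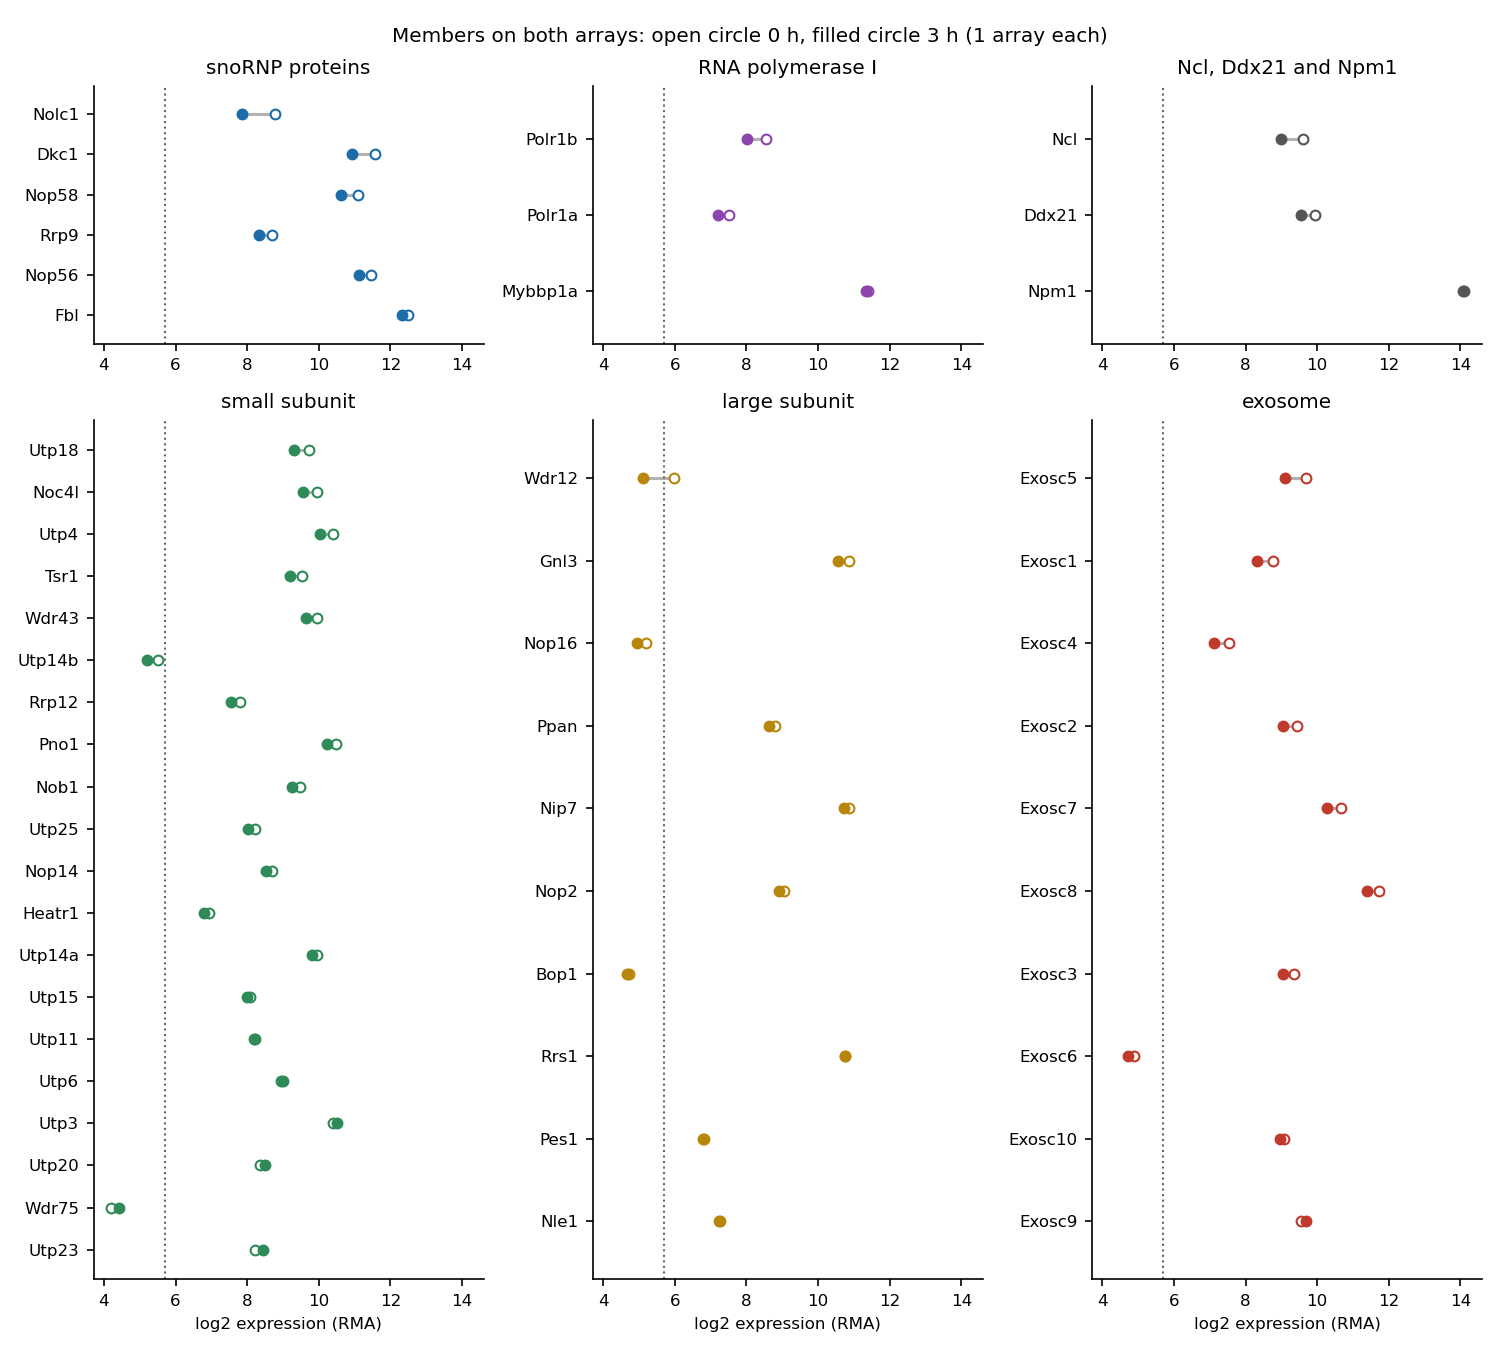
Log2 expression (horizontal axis) of the 52 members in 6 groups by role, with an open circle for 0 h, a filled circle for 3 h and the floor of 5.70 as a dotted line; each circle is 1 array. The filled circle lies to the left for most genes, and Wdr12 crosses the floor.

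**Figure D2:**
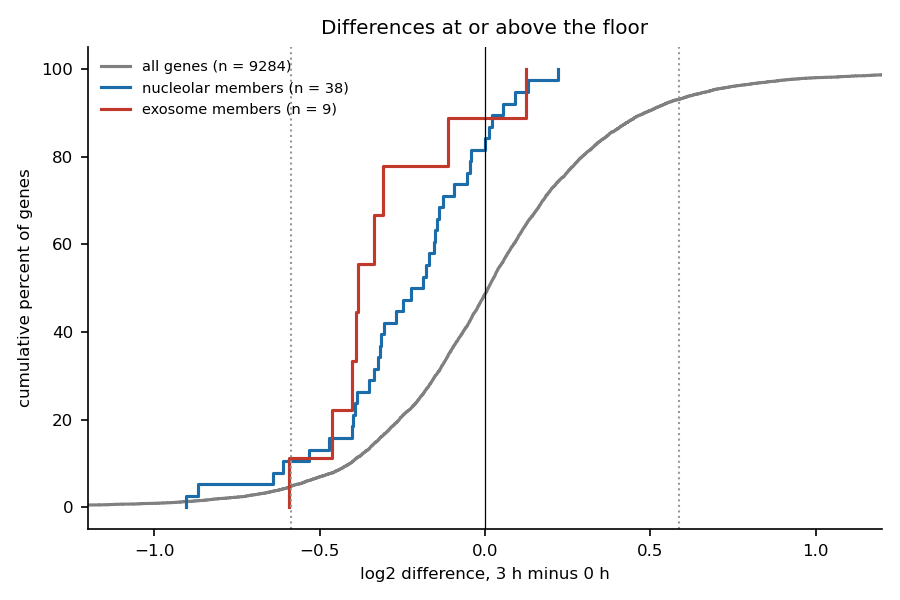
Cumulative percent of genes (vertical axis) at or below each log2 difference, 3 h minus 0 h, for the 38 nucleolar members, the 9 exosome members and all 9284 genes at or above the floor; dotted lines mark 1.5-fold, and 172 genes lie beyond the axis limits of 1.2. Both member curves run to the left of the curve of all genes, except below the lowest nucleolar (-0.91) and the lowest exosome (-0.59) difference.

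The snoRNP proteins held the member with the lowest difference, and all 6 were lower, with a median of -0.43. Nolc1, a phosphoprotein that escorts snoRNPs between the nucleolus and Cajal bodies, went from 8.77 at 0 h to 7.87 at 3 h, 1.87-fold lower, and 1.28% of all genes had a lower difference. Dkc1, the pseudouridine synthase of box H/ACA snoRNPs, went from 11.56 to 10.92 (1.56-fold lower). Its 3 partner proteins of the H/ACA core, which are not members, were lower as well: Nop10 differed by -0.55, Nhp2 by -0.29 and Gar1 by -0.21. Naf1 (-0.53) and Shq1 (-0.48), which assemble the H/ACA particle, lay in the same range. So every measured H/ACA core gene was lower, with differences from -0.64 to -0.21.

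The members of the box C/D snoRNPs, which guide ribose methylation, had differences from -0.47 to -0.15. Nop58 went from 11.09 to 10.61 and its paralog and scaffold partner Nop56 from 11.47 to 11.13, differences of -0.47 and -0.34. Fbl, the methyltransferase fibrillarin, went from 12.48 to 12.33 (-0.15). Rrp9, a protein of the box C/D particle that serves the small subunit processome, went from 8.71 to 8.32 (-0.39).

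Of the wider set of snoRNP assembly genes, all 12 measured were at or above the floor and lower, with a median of -0.28. Of them 1 passed 1.5-fold (8.33%, against 4.8% of all genes). With plain probe sets alone 9 of them remained and the median was -0.48. The gene past 1.5-fold was Ruvbl1 (-0.59), an ATPase of the R2TP assembly complex, next to its partner Ruvbl2 (-0.53) and Nop10. The Cajal body gene Coil had the smallest difference of the 12 (-0.04). The R2TP ATPases also act in chromatin remodelling, so they are not specific to snoRNPs.

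Of the 3 RNA polymerase I members both subunits were lower, and the other genes of this polymerase were mixed. Polr1b, the second-largest subunit, went from 8.55 to 8.02 (-0.53). Polr1a, the largest subunit, went from 7.53 to 7.21 (-0.32). Mybbp1a, a nucleolar regulator of this polymerase, had nearly equal levels (11.39 and 11.33).

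Among 14 other genes of the polymerase and its factors at or above the floor, 8 were lower and 6 higher, with a median of -0.03. The specific subunits Polr1e (7.68 to 6.97, -0.71) and Cd3eap (-0.50) were lowest, followed by Nol11 (-0.40), a processome protein that also serves transcription. Polr1c (-0.13) and Polr1d (-0.14), which RNA polymerase III shares, differed less, as did the specific subunits Znrd1 (-0.12) and Twistnb (0.08). Among the initiation factor genes Ubtf differed by -0.03 and Rrn3 by 0.12, and Taf1b (0.31), of the promoter selectivity factor, was highest. For comparison, 11 RNA polymerase II subunits had a median of -0.05, with 7 lower and 4 higher. Their lowest, Polr2f (-0.44), Polr2h (-0.34) and Polr2e (-0.17), are shared with RNA polymerases I and III, so the lists are not separate. The median of 9 RNA polymerase III subunits was 0.01.

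Among the multifunctional nucleolar proteins, nucleolin and nucleophosmin differed in size. Ncl, the nucleolin gene, went from 9.61 to 8.99, 1.53-fold lower. Ddx21, an RNA helicase of ribosomal RNA transcription and processing, went from 9.95 to 9.56 (-0.39). Npm1, the nucleophosmin gene, stood at 14.11 and 14.07. Its level is near the maximum of 14.73 on the array, so saturation may hide a difference, and after quantile normalization its difference was 0, and 0.02 with an intensity trend removed.

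The small subunit factors formed the largest group, with 18 of 20 at or above the floor, 14 lower, 4 higher, none past 1.5-fold and a median of -0.18. Utp18, a WD-repeat protein of the processome, had the lowest difference (9.72 to 9.32, -0.40). Noc4l, which works with Nop14, went from 9.95 to 9.55 (-0.40), whereas Nop14 itself differed by -0.17. Utp4 went from 10.39 to 10.03 (-0.35). These 3 lowest members lay close together, and none was as low as Nolc1.

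Subcomplexes of the processome can be followed further. The t-UTP proteins, which link processing to transcription, were all lower among the 5 at or above the floor: Nol11 (-0.40), Utp4, Wdr43 (9.96 to 9.65, -0.31), Heatr1 (6.94 to 6.80, -0.14) and Utp15 (-0.09). Wdr75, the sixth, did not reach the floor (4.21 and 4.42). In the UTP-B subcomplex Tbl3 (-0.41), Utp18, Wdr36 (-0.40) and Wdr3 (-0.30) were lower, and Utp6 (0.05) and Pwp2 (0.03) were not. The subunits of 1 complex therefore did not share a single difference.

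Among the members, late small subunit factors were lower too. Tsr1, a GTPase-like factor of late maturation, went from 9.52 to 9.19 (-0.32), and Rrp12, which serves export of the particle, from 7.81 to 7.54 (-0.27). Pno1 went from 10.47 to 10.22 (-0.25) and its partner Nob1, the nuclease of the last cut of the small subunit RNA, from 9.47 to 9.25 (-0.22). The members that were higher here were all Utp genes. Utp23 went from 8.22 to 8.44 (0.22), the highest difference of any member at or above the floor, and Utp20 (0.13), Utp3 (0.09) and Utp6 followed. Utp25 (-0.19), Utp14a (-0.13) and Utp11 (-0.04) completed the group, and Utp14b, a retrogene copy of Utp14a, was below the floor (5.50 and 5.21).

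Other small subunit factors, outside the set, went the same way: of 38 at or above the floor 28 were lower, 10 higher, and the median was -0.16. Lyar (10.92 to 10.28, -0.64) alone was at least 1.5-fold lower, 2.63% of the 38 against 4.8% of all genes. Rcl1 (-0.54) and Sdad1 (-0.50) were next. The kinase gene Riok2, of late maturation, was highest (0.37).

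The large subunit factors were split. Of 10 members 8 reached the floor, with 5 lower, 3 higher and a median of -0.15. Wdr12 went from 5.97 to 5.10, 1.82-fold lower, and thereby from just above to below the floor, where a fold is less certain. It is no longer counted with a floor 1 log2 unit higher or on the mean, which leaves 4 of 46 members at least 1.5-fold lower. Its partners in the PeBoW complex of large subunit maturation did not share this: Pes1 stood at 6.80 and 6.81, and Bop1 did not reach the floor (4.71 and 4.68). Gnl3, the nucleolar GTPase nucleostemin, went from 10.86 to 10.55 (-0.32).

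The other large subunit members differed little. Ppan went from 8.80 to 8.62 (-0.18), Nip7 from 10.88 to 10.72 (-0.16) and Nop2, a methyltransferase of the large subunit RNA, from 9.04 to 8.90 (-0.14). Rrs1, which helps to place the small ribosomal RNA of the large subunit, stood at 10.76 and 10.77, and Nle1 was nearly equal (7.24 and 7.26). Nop16 was below the floor (5.20 and 4.95).

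Outside the set, 49 other large subunit factors had a median of -0.12, with 38 lower and 11 higher. At least 1.5-fold lower were Noc2l (8.97 to 8.16, -0.80), Rrp1b (-0.65) and Urb1 (-0.64), which is 6.12% of the 49 against 4.8% of all genes. Nsa2 (0.17) was highest. The lowest genes of the large subunit thus lay in part outside the listed members. The lists of other snoRNP, RNA polymerase I, small subunit, large subunit and exosome genes together held 128 genes at or above the floor. Of these 6 (4.69%) were at least 1.5-fold lower, near the share of all genes, and 73.4% were lower by any amount.

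Most exosome subunits were lower, with 8 of 9 at or above the floor lower and a median of -0.39, against -0.20 for the 38 nucleolar members. With 1 array per time this gap was not tested. Among those 38, the snoRNP proteins (-0.43) and the group of Ncl, Ddx21 and Npm1 (-0.39) had medians as low. The 3 cap subunits, which line the entry to the channel, lay together. Exosc1 went from 8.77 to 8.31 (-0.46), Exosc2 from 9.43 to 9.04 (-0.39) and Exosc3 from 9.36 to 9.05 (-0.31).

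The ring of 6 subunits had the lowest and the highest difference of the exosome. Exosc5 went from 9.69 to 9.10, 1.51-fold lower and just past the threshold, which it missed with an intensity trend removed (-0.58). Exosc4 went from 7.53 to 7.13 (-0.40), Exosc7 from 10.67 to 10.28 (-0.39) and Exosc8 from 11.73 to 11.39 (-0.34). Exosc9 was the exception and was higher, from 9.55 to 9.67 (0.12), and Exosc6 was below the floor (4.90 and 4.72).

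The nucleases had differences closer to 0 than the cap. Exosc10, the nuclear exonuclease, went from 9.09 to 8.97 (-0.11). Dis3 (-0.09), the catalytic subunit of the nucleus, and Dis3l (0.21), its cytoplasmic relative, are not members. Among 17 nucleases and cofactors at or above the floor 9 were lower and 8 higher, with a median of -0.0050. The 17 include the exonuclease genes Xrn1 (0.01) and Xrn2 (0.28), which do not belong to the exosome. Zcchc7 (-0.44), of the complex that adds short tails to exosome substrates, Hbs1l (-0.28) and Wdr61 (-0.20) were lowest, and Zfc3h1 (6.50 to 7.32, 0.81), of a nuclear targeting complex, was highest. A further 1.5-fold higher gene was the poly(A) polymerase gene Tent4a (0.71). The helicase gene Mtrex was below the floor (5.15 and 4.92).

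**Figure D3:**
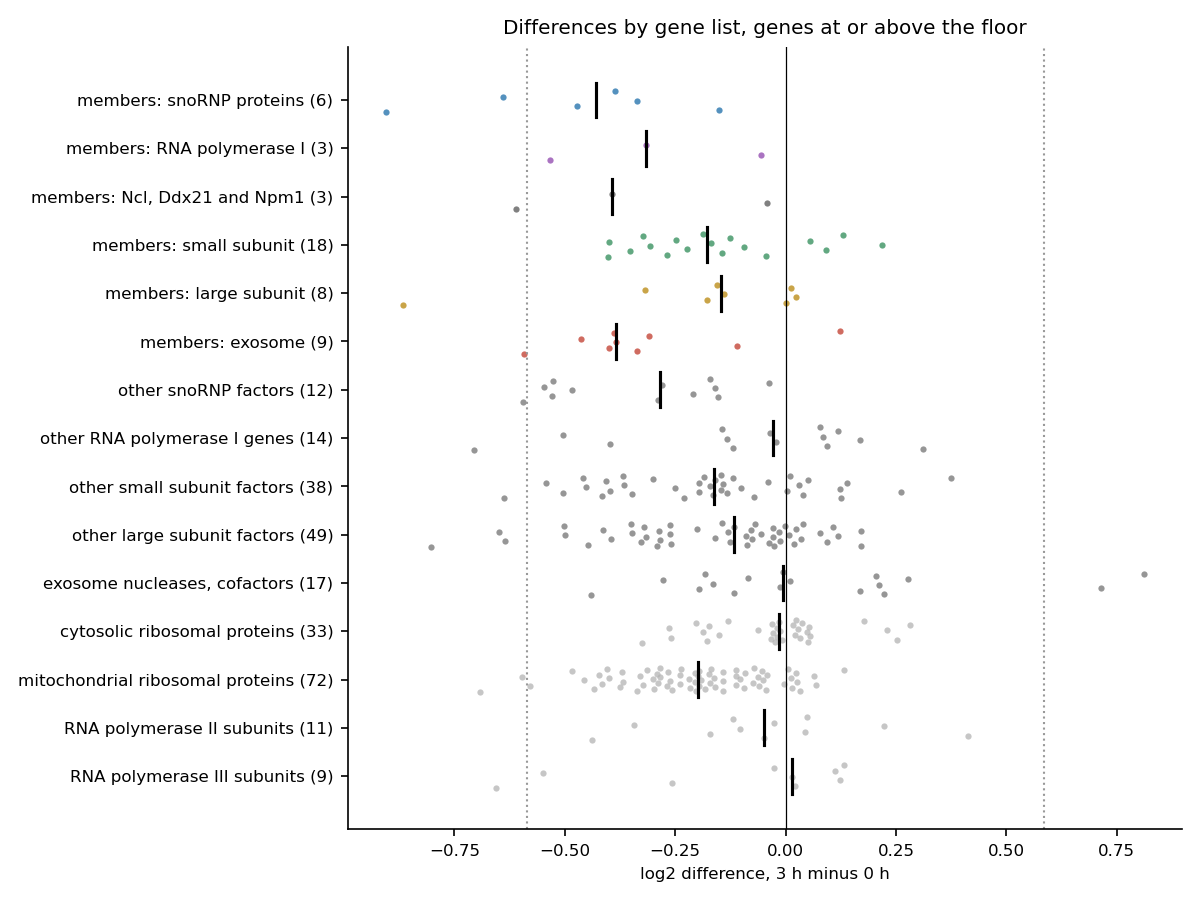
Log2 differences, 3 h minus 0 h (horizontal axis), of genes at or above the floor, as points with the median of each list as a black bar; the number of genes is in brackets and dotted lines mark 1.5-fold. The medians of the members run from -0.43 (snoRNP proteins) to -0.15 (large subunit), and that of the cytosolic ribosomal proteins is -0.01.

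The genes of the ribosome's own proteins had a median near 0. For 33 cytosolic ribosomal protein genes at or above the floor, close paralogs included, the median was -0.01, with 19 lower, 14 higher and none past 1.5-fold. Many of these probe sets have high signals, their summed linear signal was 307200 at 0 h and 308344 at 3 h over all 41 measured, and saturation can hide a difference. Mitochondrial ribosomal protein genes were lower in 63 of 72, with a median of -0.20, which is close to the nucleolar members. Of the 72, 2 were at least 1.5-fold lower (2.78%, against 4.8% of all genes). A direction shared by most members was therefore found in this other list as well.

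Most regulators above the nucleolus were higher at 3 h, unlike the members. Myc went from 9.41 to 9.68 (0.27), and a part of MYC in the differences of the members was not tested. Of 10 regulators at or above the floor 8 were higher and 2 lower (20% lower, against 48.5% of all genes), with a median of 0.18. This list pools Myc and Mycn with antagonists of MYC, so its count and median have no single direction for the nucleolus. The antagonist gene Mxi1 (-0.58), Mnt (-0.33) and Mtor (0.10) had the lowest differences, and Rb1 (8.05 to 8.88, 0.84) the highest. Mycn (0.60) and the MYC antagonist gene Mxd4 (0.59) were also at least 1.5-fold higher, a size that 6.94% of all genes reached. Among genes through which p53 senses disturbed nucleoli 3 reached the floor, with a median of 0.06: Nop53 (0.04), Hexim1 (0.06) and Mdm2 (9.26 to 9.89, 0.63), which encodes the ubiquitin ligase of p53. Protein levels and activity of these regulators were not measured.

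**Figure D4:**
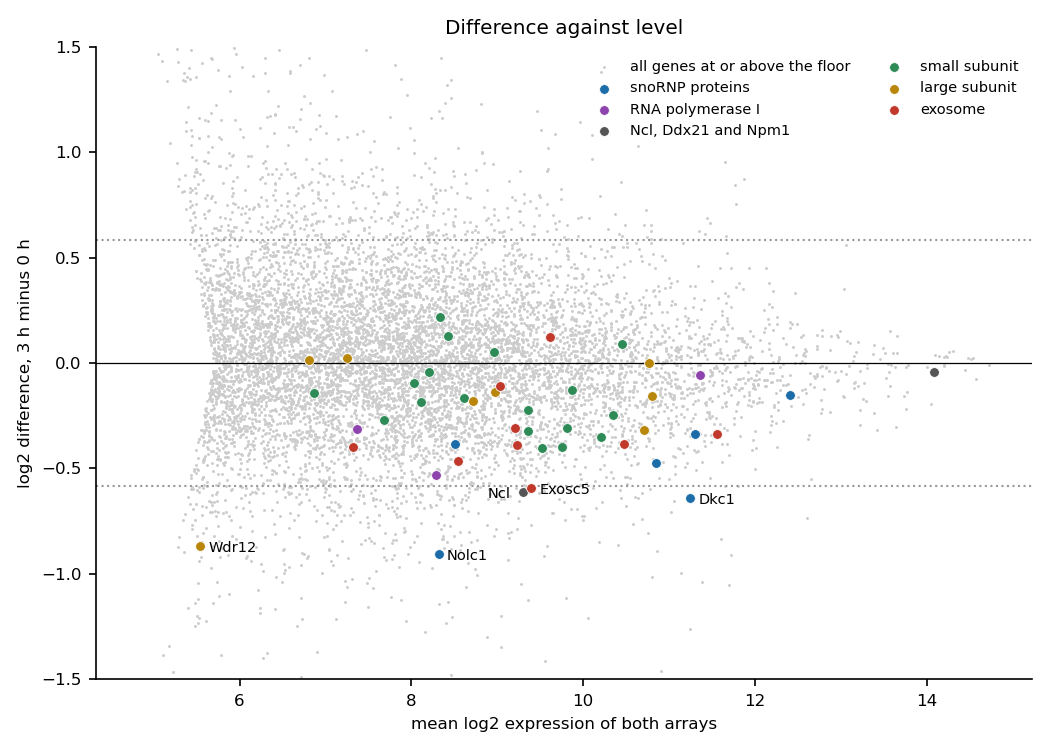
Log2 difference, 3 h minus 0 h (vertical axis), against the mean log2 level of both arrays for the 47 members (coloured by role) and all 9284 genes at or above the floor (grey; 94 lie beyond the limits of 1.5); dotted lines mark 1.5-fold. Lower members occur over the whole range of levels, and the 5 members past 1.5-fold are named.

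Promoter sequences were examined because MYC and its partner MAX bind the E-box, written CACGTG, and because most members were lower. RefSeq windows of 300 bases (250 before to 50 from each annotated start, assembly GRCm38.p6) were matched by gene ID for 42 members. Not matched were Bop1, Exosc4, Exosc9, Fbl, Npm1, Rrp12, Rrs1, Utp11, Utp23 and Utp6. CACGTG, which is its own reverse complement, occurred in 13 of the 42 (31.0%), against 923 of 7603 genes at or above the floor (12.1%). The 42 include members below the floor, with Utp14b among the 13, and the 7603 do not. Of matched members at or above the floor 12 held the letters and 26 did not. Counted by window, CACGTG occurred in 15 of 47 member windows (31.9%), against 2349 of all 32851 windows (7.15%). In the 15 member windows that held it the letters began between 63 bases before and 42 bases after a start. The exception was a window of Utp25 where they began 245 bases before. The 3 Utp25 windows overlap and hold the same site.

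The following stretches of at most 30 bases, 5′ to 3′ on the gene's strand with CACGTG in capitals, are shown for the 4 members with the lowest differences among the 13, for Utp20 with the highest, and for the methyltransferase gene Nop2, whose letters lie upstream of the start.
Exosc5, chr7:25659097-25659126, strand +: taaacgctgagcCACGTGctagggccaact
Utp18, chr11:93885769-93885798, strand -: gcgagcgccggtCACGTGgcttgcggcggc
Utp4, chr8:106893643-106893672, strand +: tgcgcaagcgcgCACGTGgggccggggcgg
Tsr1, chr11:74898092-74898121, strand +: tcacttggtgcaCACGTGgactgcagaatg
Nop2, chr6:125131811-125131840, strand +: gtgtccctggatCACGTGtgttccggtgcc
Utp20, chr10:88826765-88826789, strand -: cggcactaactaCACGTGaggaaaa

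Of the 5 members at least 1.5-fold lower Exosc5 had the E-box letters, and Nolc1, Wdr12, Dkc1 and Ncl did not. The 12 members at or above the floor with the letters had a median difference of -0.22, with 9 lower. For the 26 without them it was -0.34, with 25 lower. Over all genes at or above the floor the medians were -0.0036 with and 0.0066 without the letters. The presence of these letters is a description of the window and not a binding site.

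The 250 bases before the start show the contrast between a low member with the letters and the lowest member without them. Exosc5 holds CACGTG beginning 44 bases before its start, and Nolc1 holds none in this window.
Exosc5, chr7:25658903-25659152, strand +: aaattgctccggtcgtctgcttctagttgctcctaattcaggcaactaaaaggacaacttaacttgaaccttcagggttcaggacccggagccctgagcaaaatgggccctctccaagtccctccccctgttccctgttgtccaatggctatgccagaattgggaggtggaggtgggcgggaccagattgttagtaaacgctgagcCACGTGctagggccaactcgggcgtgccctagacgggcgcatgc
Nolc1, chr19:46075597-46075846, strand +: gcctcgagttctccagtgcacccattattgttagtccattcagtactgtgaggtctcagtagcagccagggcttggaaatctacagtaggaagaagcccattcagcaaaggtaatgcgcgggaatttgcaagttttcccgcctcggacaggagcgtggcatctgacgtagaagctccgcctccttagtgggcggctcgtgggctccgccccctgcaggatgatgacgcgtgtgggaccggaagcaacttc

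Other motifs searched on both strands were CCGGAAGT, which ETS factors bind, and the palindrome of NRF1. The ETS letters occurred in 6 of the 42 members (14.3%), against 9.72% of genes at or above the floor: Heatr1, Nip7, Ppan, Tsr1, Utp3 and Utp4. Counted by window, they occurred in 12.8% of 47 member windows and 3.89% of all windows. The NRF1 letters occurred in 2 members (4.76%, against 2.45% of genes), Exosc5 and Pno1, and in 4.26% of member windows and 0.971% of all windows. Of matched members at or above the floor 6 held the ETS letters and 32 did not. For the NRF1 letters these counts were 2 and 36. Exosc5, Pno1, Tsr1 and Utp4 held a second motif beside CACGTG, and no match overlapped a match to another motif.

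**Figure D5:**
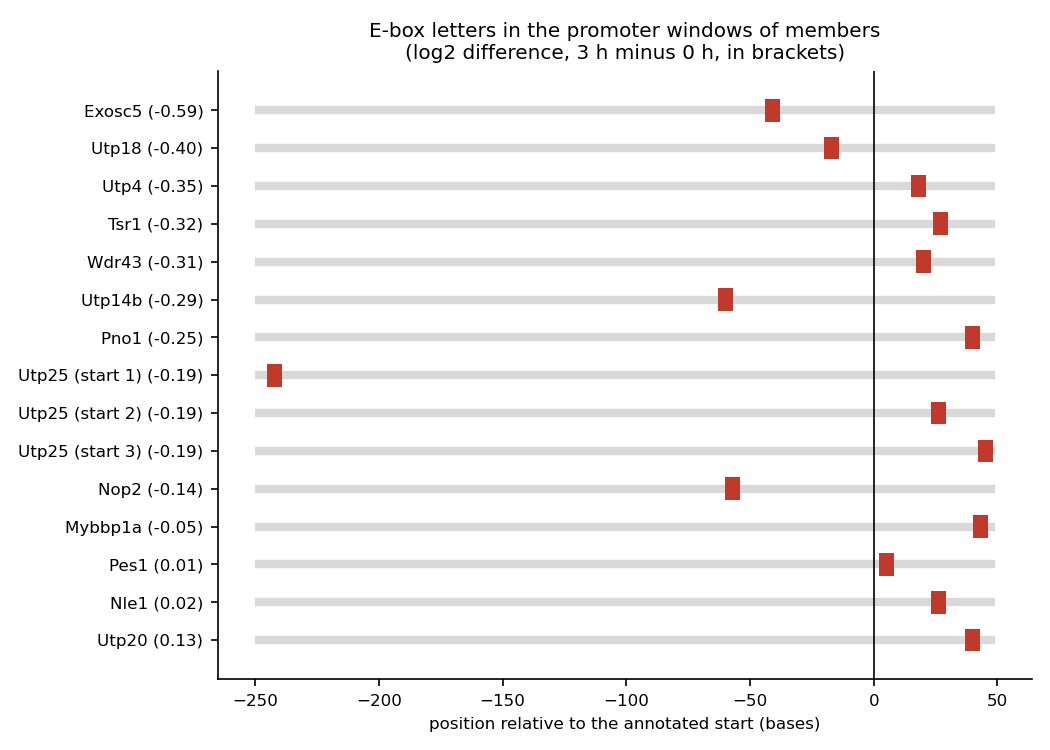
Position of the CACGTG letters (red, to scale) relative to the annotated start in the promoter windows (grey) of the 13 members that hold them, ordered by the log2 difference, 3 h minus 0 h, in brackets. Apart from 1 window of Utp25 the letters lie close to the start, in genes with differences from -0.59 to 0.13.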

How the data were processed

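Per the labels' protocols, biotinylated cRNA from 1.5 µg of total RNA was hybridised to the arrays. The deposited values are on the log2 scale and come from RMA in the affy package, per the submitters' processing notes. The sources used here do not state versions or which arrays were normalized jointly. RMA forces equal distributions of probe signals on arrays normalized together, so a shift of all transcripts between such arrays cannot be seen. It also compresses differences of dim probe sets. The medians of all deposited probe set values were 5.29 at 0 h and 5.32 at 3 h. Of 20666 probe sets 17918 were annotated to 1 gene, 79 to several and 2669 to none; those with 1 gene were used and averaged per symbol. All 52 members matched RefSeq by Entrez ID, and 0 symbols were changed by it. Of the members 38 were read by plain probe sets and 7, 4 and 3 by sets with the suffixes _a_at, _s_at and _x_at, which can match several transcripts or genes.

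No test was made, because each group has 1 array. The call is a fold of 1.5 at or above the floor. Named with values were members by role (the 3 lowest and the highest of each group, all past 1.5-fold, all below the floor and the main subunits) and the 3 lowest and the highest of each list; others were named after their values were seen. The members and lists were chosen with earlier results of these data known. The subcomplexes were grouped, and Mpp6 and Rrnad1 removed from lists as misassigned (likewise Rps19bp1 and a pseudogene from the ribosomal proteins), after values were seen. Nvl and Nop53 stand in more than 1 list. The counting code was checked on simulated data with planted differences larger than any of the members. That check does not bear on how reliable the calls are. Software was matplotlib 3.10.9, statsmodels 0.14.6, scipy 1.17.1, pandas 2.3.3 and numpy 2.4.6 in Python 3.11.15.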

Additional observations from a re-analysis of the deposited data

How the results depend on the processing

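Alternatives were quantile normalization of both arrays, removal of an intensity trend (loess, span 0.3), the highest in place of the averaged probe sets, plain probe sets alone, no floor, a floor 1 log2 unit higher and a floor on the mean. Under these the count of members at least 1.5-fold lower was 4 or 5, none was 1.5-fold higher or 2-fold lower, and the median difference of all members lay between -0.29 and -0.25. It lay between -0.39 and -0.35 for exosome and between -0.22 and -0.19 for nucleolar members. The intensity trend took Exosc5 under 1.5-fold, either stricter floor removed Wdr12, and plain probe sets alone left out Nolc1. Among the other lists, medians near 0 moved: for RNA polymerase I genes to -0.08 (plain probe sets), for exosome nucleases and cofactors to -0.05 (no floor) and for p53 sensing to 0.12 (no floor), while that of the snoRNP list was -0.48 with plain probe sets. Further, Mybbp1a, Npm1, Nle1 and Pes1, all within 0.06 of 0, lost their sign in at least 1 normalization. Plain probe sets alone left 34 members. No paired analysis was possible because each time has 1 array, and no replicate could be left out. Signals near the floor (Wdr12) and near the maximum (Npm1) limit the folds of those genes.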

Other observations

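Among RNA polymerase III subunits, Polr3g (8.11 to 7.45, -0.66) and Polr3k (8.74 to 8.19, -0.55) had the lowest differences, while the median of the 9 subunits was 0.01. Among mitochondrial ribosomal protein genes Mrpl34 (10.21 to 9.52, -0.69) and Mrpl52 (11.07 to 10.48, -0.60) were lowest. These genes were chosen after their values were seen.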
